A study of Mus musculus with 32 samples.

Results

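The cytosolic ribosomal proteins are the structural proteins of the large (60S) and small (40S) ribosomal subunits. Their genes were taken by symbol (Rpl or Rps with a number, Rplp0 to Rplp2 and Rpsa), with Rpl3 and Rpl3l set aside, and 61 of the 19505 genes measured on the arrays met this rule, each with 1 probe set. Of the 61, 37 encode 60S proteins, among them the stalk proteins Rplp0 and Rplp1, and 24 encode 40S proteins. The 61 include 7 paralogs or variants of standard ribosomal proteins (Rpl7l1, Rpl10l, Rpl22l1, Rpl32l, Rpl39l, Rps4l and Rps27l). Rplp2, Rpl10, Rpl13a, Rps27 and Rps27a were not analysed here. In 59 of the 61, every array lay above the background level (a log2 value of 6.59, from olfactory and vomeronasal receptor genes). Rpl39l lay below it on all 32 arrays and Rpl10l on 30 of 32, so no change is read for these 2 testis-associated paralogs, which stay in the counts of 61.

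A ribosome is built from ribosomal RNA and 1 copy of most of these proteins, so that cells make them in matched amounts, in part by controlling how their messenger RNAs are translated. Most ribosomal protein messenger RNAs begin with a C followed by a run of pyrimidines, the 5′ terminal oligopyrimidine (TOP) tract, which places their translation under mTORC1 and the tract-binding protein LARP1. Ribosomal protein genes are among the most highly transcribed genes of any cell, and in the heart ribosome production is known to rise during hypertrophic growth. Ribosomal protein genes have many processed pseudogenes and near-identical copies, and probes may read such copies, so single-gene values are uncertain in that respect.

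Whole hearts were studied in mice heterozygous for 1 of 2 mutations of CHCHD10 (C10), a protein of the mitochondrial intermembrane space. All animals lacked 1 or both alleles of Oma1, which encodes a stress-activated protease of the inner mitochondrial membrane. At 14 weeks the groups were C10 G58R OMA1-/-, C10 G58R OMA1+/-, C10 WT OMA1-/- and C10 WT OMA1+/-, and at 20 weeks C10 S59L OMA1-/-, C10 S59L OMA1+/-, C10 WT OMA1-/- and C10 WT OMA1+/-, with 4 hearts on 4 arrays in each group. Mice were untreated and on normal chow, and each group held 2 females and 2 males except C10 G58R OMA1+/- (3 females) and C10 WT OMA1-/- at 14 weeks (1 female). The few C10 G58R OMA1-/- hearts come from the minority of pups that survived the neonatal period, and the G58R allele was a knock-in made by genome editing. Because RNA came from whole hearts, fewer cells of a type and less RNA per cell cannot be told apart.

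The labelled tissue was clear on every array, since the mean of 6 cardiomyocyte markers lay between 17.3 and 18.42. That mean was nevertheless lower in 3 of the 4 mutant groups, where C10 G58R OMA1-/- hearts spanned 17.52 to 18.05 against 18.2 to 18.37 in their WT hearts. The spans were 17.3 to 17.88 (C10 S59L OMA1-/-) against 18.12 to 18.42 in WT, and 17.51 to 17.7 (C10 S59L OMA1+/-) against 18.07 to 18.26 in WT. In the same order 3, 4 and 2 of the 6 cardiomyocyte markers fell. Levels of markers of other tissue differed between hearts. Mean adipocyte markers exceeded 9 on 7 arrays, namely C10 G58R OMA1-/- replicate 1, C10 S59L OMA1-/- replicates 1 and 2, C10 S59L OMA1+/- replicate 1 and C10 WT OMA1+/- replicates 1 to 3 at 14 weeks, and mean atrial markers ranged between 8.14 and 18.88 over the 32 arrays. Macrophage markers passed the test as higher in 5 of 9 genes in C10 G58R OMA1-/- hearts and in 8 of 9 in C10 S59L hearts on either OMA1 background, while endothelial markers passed as lower in 6, 4 and 6 of 7 (G58R OMA1-/-, S59L OMA1-/- and S59L OMA1+/-). In C10 S59L OMA1-/- hearts 3 of 6 adipocyte markers rose. The part of these cell types in the ribosomal protein results was not tested beyond the fits described below. The upper end of the deposited values also differed between genotypes. The level below which 95% of all genes lay averaged 13.41 ± 0.03 in C10 G58R OMA1-/- and 12.96 ± 0.08 in C10 WT OMA1-/- hearts, 13.25 ± 0.14 in C10 S59L OMA1-/- and 12.82 ± 0.13 in C10 WT OMA1-/- hearts, and 13.28 ± 0.09 in C10 S59L OMA1+/- and 12.82 ± 0.1 in C10 WT OMA1+/- hearts (SD, n = 4 each). The 61 genes sit in this upper range, 53 of them among the brightest 10% of genes. The counts of genes that rose between mutant and WT hearts are therefore given beside those of all genes and of the brightest 10%. Quantile normalization, which gives every array the same distribution, was applied to the same comparisons.

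Start-site sequence was read for 49 of the 61 genes that have a promoter entry in RefSeq (GRCm38.p6). A C at the annotated first base followed by at least 4 more bases that are all C or T was found in 12 of the 49 (24.5%), against 813 of 27025 genes with a promoter entry (3.01%). Such a tract began within 10 bases of the annotated start, on either side, in 30 of the 49 (61.2%), against 34.4% of all genes. The 7 stretches below do not stand for the 49 genes. Rplp0 and Rps13 rose in C10 S59L OMA1+/- hearts and had no tract within 10 bases, while Rpl7a and Rps18 did not rise and had such a tract. The stretches show 15 bases before and 15 from the annotated start of 7 genes described further on. Capitals mark a tract where present, either that beginning at the annotated start or else the longest within 10 bases of it. The Rpl39 stretch also holds a shorter run in lower case, cctct, that meets the same rule. Of these genes 5 passed the test in several comparisons and 2 (Rps4x and Rpl27) were not higher in any.
Rpl15 (chr14:18270972-18271001, minus strand): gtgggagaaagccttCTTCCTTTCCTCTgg
Rps6 (chr4:86857353-86857382, minus strand): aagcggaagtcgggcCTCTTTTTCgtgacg
Rps26 (chr10:128626492-128626521, minus strand): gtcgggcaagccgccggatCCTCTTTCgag
Rps9 (chr7:3704026-3704055, plus strand): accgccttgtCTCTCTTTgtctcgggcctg
Rpl39 (chrX:37085208-37085237, minus strand): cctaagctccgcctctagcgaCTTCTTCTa
Rps4x (chrX:102189377-102189406, minus strand): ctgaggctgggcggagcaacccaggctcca
Rpl27 (chr11:101442230-101442259, plus strand): acgctctgttcctgtctgctgctcgtgctg
Annotated starts can lie some bases off the tract, as in Rps26 and Rps9, and the absence of a tract in these 30 bases says only that these letters are not there. The ETS motif CCGGAAG, on either strand, lay in the 300-base promoter window of 21 of the 49 genes (42.9%), against 9.93% of all genes. Of the 28 genes with a window that rose in C10 S59L OMA1+/- hearts 15 held it (53.6%), and of the other 21 genes 6 did (28.6%), which is a description with no test. The YY1 (AAGATGG) and SP1 (GGGCGG) motifs were counted as well, and lay in 16.3% and 59.2% of the 49 genes, against 7.28% and 38.2% of all genes. Their shares leaned the other way, at 14.3% of those 28 and 19% of those 21 (YY1) and 57.1% and 61.9% (SP1). A tract within 10 bases was found in 19 of those 28 (67.9%) and 11 of those 21 (52.4%).

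The first comparison asked how G58R hearts differ from WT hearts when OMA1 is absent. In C10 G58R OMA1-/- hearts 26 of the 61 genes rose (42.6%) and 1 fell, by limma at an adjusted p below 0.05. Over all genes 18.3% rose and 15.3% fell, and of the brightest 10% of genes 36% rose. The median log2 difference was 0.57 over the 61 genes, -0.10 over all genes and 0.32 over the brightest 10%, and 50 of the 61 differences were positive. After quantile normalization 13 of the 61 rose and 4 fell, with a median of 0.23 and 14.5% of all genes higher. The share of all genes that then fell and the share of the brightest 10% that rose are not given, which limits how these counts can be read. All 4 mutant arrays lay above all 4 WT arrays for 31 of the 61 genes, against 19.8% of all genes, and below them for 2, against 16.5% of all genes. These 2 were Rpl27 and Rpl39l, and the order of the Rpl39l arrays, all below background, is not read as a change.

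Rpl10a, which forms the L1 stalk through which spent transfer RNA leaves the ribosome, had the largest difference of the 61 in C10 G58R OMA1-/- hearts. Its log2 level was 14.76, 14.99, 14.67 and 14.58 in C10 G58R OMA1-/- hearts, against 12.13, 12.36, 12.74 and 13.32 in C10 WT OMA1-/- hearts. The groups did not overlap, and the lowest mutant heart lay more than 1 log2 unit above the highest WT heart. The difference was 2.11 ± 0.38 (SE, adjusted p = 0.000383), and 1.73 after quantile normalization. Rps26, which lines the path of the messenger RNA as it leaves the small subunit, read 14.61, 14.69, 15.02 and 14.56 in C10 G58R OMA1-/- hearts and 13.21, 12.96, 12.94 and 13.48 in C10 WT OMA1-/- hearts. All mutant hearts were again above all WT hearts, by 1.57 ± 0.30 on average (adjusted p = 0.000632). Rpl15, a core 60S protein, gave 16.6, 16.57, 16.38 and 16.26 in C10 G58R OMA1-/- hearts and 14.82, 14.89, 15.04 and 15.36 in C10 WT OMA1-/- hearts, a difference of 1.43 ± 0.32 (adjusted p = 0.00236). The 4 WT hearts were all below the lowest mutant heart.

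Rplp0 anchors the stalk that recruits elongation factors. It was at 14.3, 14.42, 13.87 and 14.38 in C10 G58R OMA1-/- hearts, against 12.27, 12.94, 13.18 and 13.41 in C10 WT OMA1-/- hearts (1.29 ± 0.28, adjusted p = 0.00154). Its partner Rplp1 differed by 0.94 ± 0.22 (adjusted p = 0.00339), and neither gene overlapped between the groups. Rpl4, whose loop reaches into the peptide exit tunnel, rose by 1.26 ± 0.29 (adjusted p = 0.00284). Rpl39, a small protein at the end of the same tunnel, rose by 0.81 ± 0.23 (adjusted p = 0.0108). Among 40S proteins Rps13 rose by 1.08 ± 0.21, Rps15 by 1.07 ± 0.27 and Rps9, at the messenger RNA entry, by 1.03 ± 0.29, with adjusted p values of 0.00075, 0.00475 and 0.0118, and the Rps9 call was lost without C10 WT OMA1-/- replicate 1. After quantile normalization Rpl39 (0.39, adjusted p = 0.158) and Rps9 (0.64, adjusted p = 0.0699) did not pass in C10 G58R OMA1-/- hearts. Rps6, the 40S target of S6 kinase, was at 18.42, 17.99, 17.94 and 17.81 in C10 G58R OMA1-/- hearts and 17.26, 17.2, 17.29 and 17.6 in C10 WT OMA1-/- hearts. These do not overlap, and the difference was 0.70 ± 0.21 (adjusted p = 0.0137), but it was 0.46 after quantile normalization (adjusted p = 0.0533) and the call was lost without C10 G58R OMA1-/- replicate 1.

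**Figure D1:**
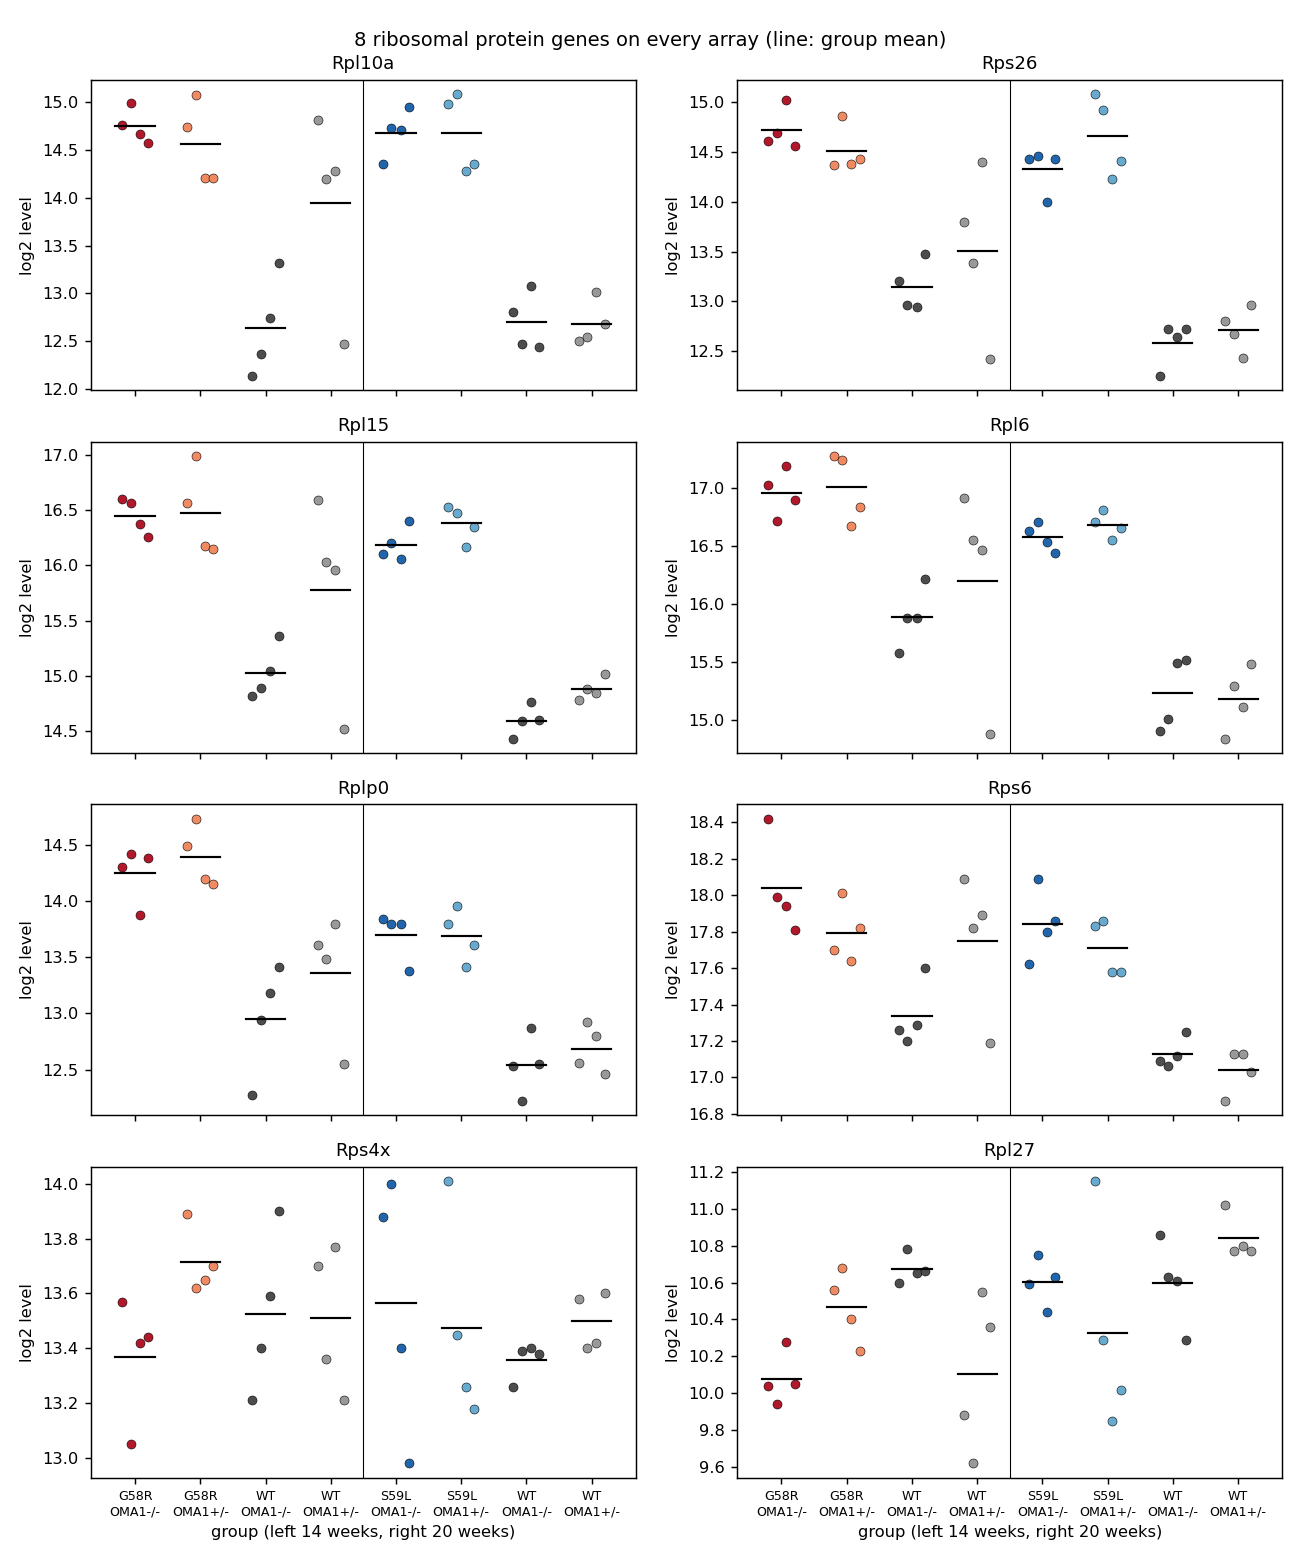
Log2 level (vertical axes) of 8 ribosomal protein genes on every array, by group (horizontal axis; 14 weeks left, 20 weeks right of the thin line), each point 1 heart and each line the group mean. Rpl10a lay between 14.58 and 14.99 in C10 G58R OMA1-/- hearts and between 12.13 and 13.32 in C10 WT OMA1-/- hearts, while Rps4x overlapped between mutant and WT hearts on each OMA1 background.

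The gene that fell in C10 G58R OMA1-/- hearts was Rpl27, a 60S protein. It was at 10.04, 9.94, 10.28 and 10.05 in C10 G58R OMA1-/- hearts, against 10.6, 10.78, 10.65 and 10.66 in C10 WT OMA1-/- hearts, and all mutant hearts lay below all WT hearts (-0.60 ± 0.20, adjusted p = 0.0274). The call was lost in 4 of the 16 fits that left out 1 array each. After quantile normalization Rps4x (-0.60, adjusted p = 0.0217) and Rpl7 (-0.71, adjusted p = 0.0171) were also lower, while on the deposited values they differed by -0.15 ± 0.19 and -0.32 ± 0.20 (adjusted p = 0.568 and 0.243). Rpl5 and Rpl11 join 5S ribosomal RNA in the particle that binds MDM2. Rpl5 differed by 0.75 ± 0.28 (adjusted p = 0.0497), a call lost in 9 of the 16 fits without 1 array and after quantile normalization (0.37, adjusted p = 0.285), and Rpl11 by -0.05 ± 0.17 (adjusted p = 0.839). The Rpl11 arrays overlapped throughout, between 15.82 and 16.13 in C10 G58R OMA1-/- hearts and between 15.86 and 16.12 in C10 WT OMA1-/- hearts.

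At 20 weeks the same question was put to S59L. In C10 S59L OMA1-/- hearts 36 of the 61 genes rose (59%) and 0 fell by limma. Over all genes 15.8% rose and 14% fell, and of the brightest 10% of genes 34.8% rose. The median log2 difference was 0.62 over the 61 genes, -0.10 over all genes and 0.31 over the brightest 10%. In C10 S59L OMA1+/- hearts 37 of the 61 rose (60.7%) and 0 fell, against 18.6% of all genes higher, 17.9% lower and 39.3% of the brightest 10% higher, with medians of 0.64, -0.15 and 0.37. For C10 S59L OMA1-/- and C10 S59L OMA1+/- hearts alike, all 4 mutant arrays lay above all 4 WT arrays for 38 of the 61 genes, against 13.3% of all genes with OMA1 absent and 19.5% with 1 copy, and below them for 0, against 12.8% and 18.4% of all genes. After quantile normalization 16 rose and 0 fell in C10 S59L OMA1-/- hearts (median 0.23, 12.1% of all genes higher), and 15 rose and 1 fell in C10 S59L OMA1+/- hearts (median 0.18, 14.1% of all genes higher). The gene that then fell was Rpl27 (-0.92, adjusted p = 0.0124), against -0.51 ± 0.23 on the deposited values (adjusted p = 0.0944), where it also passed without C10 S59L OMA1+/- replicate 1. For the S59L counts after quantile normalization, the shares of all genes lower and of the brightest 10% higher are not given either.

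Rpl10a was at 14.35, 14.73, 14.71 and 14.95 in C10 S59L OMA1-/- hearts and at 12.8, 12.47, 13.08 and 12.44 in C10 WT OMA1-/- hearts (1.99 ± 0.23, adjusted p = 1.18e-05). With 1 copy of Oma1 it was at 14.98, 15.09, 14.28 and 14.35 in C10 S59L hearts and at 12.5, 12.54, 13.01 and 12.68 in C10 WT hearts (1.99 ± 0.23, adjusted p = 5.23e-06). No mutant heart fell within the WT range on either OMA1 background. Rps26 was at 14.43, 14.46, 14.0 and 14.43 in C10 S59L OMA1-/- hearts and at 12.25, 12.72, 12.64 and 12.72 in C10 WT OMA1-/- hearts, a difference of 1.75 ± 0.21 (adjusted p = 2.06e-05). With 1 copy of Oma1 it read 15.08, 14.92, 14.23 and 14.41 in C10 S59L hearts, against 12.8, 12.67, 12.43 and 12.96 in C10 WT hearts, a difference of 1.95 ± 0.21 (adjusted p = 3.33e-06). Every S59L heart exceeded every WT heart by more than 1 log2 unit.

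Rpl15 rose by 1.59 ± 0.16 in C10 S59L OMA1-/- hearts (adjusted p = 3.71e-06), where its 4 values lay between 16.06 and 16.4, against 14.43 to 14.76 in C10 WT OMA1-/- hearts. In C10 S59L OMA1+/- hearts it rose by 1.5 ± 0.16 (adjusted p = 2.52e-06), with values between 16.17 and 16.53, against 14.78 to 15.02 in C10 WT OMA1+/- hearts. The SD of Rpl15 within the 20-week groups was 0.1 to 0.16, and the mutant and WT hearts were far apart. Rps9 rose by 1.60 ± 0.24 (C10 S59L OMA1-/-) and 1.59 ± 0.24 (C10 S59L OMA1+/-), and Rpl6 by 1.34 ± 0.19 and 1.5 ± 0.19. Rpl39 rose by 1.47 ± 0.22 and 1.26 ± 0.22, Rps15 by 1.26 ± 0.21 and 1.38 ± 0.21, and Rps13 by 1.31 ± 0.19 and 1.09 ± 0.19, in the same order of genotypes. Rpl21 rose by 1.08 ± 0.17 and 1.0 ± 0.17, and Rplp0 by 1.16 ± 0.19 and 1.01 ± 0.19. All adjusted p values of Rps9, Rpl6, Rpl39, Rps15, Rps13, Rpl21 and Rplp0 in these 2 comparisons were 0.00071 or less. Rplp0 and Rplp1 (0.77 ± 0.18 and 0.88 ± 0.18) together showed both measured stalk proteins higher in S59L hearts, although after quantile normalization Rplp1 lost the call on both backgrounds (0.37 and 0.49, adjusted p = 0.18 and 0.0729) and Rplp0 with 1 copy of Oma1 (0.53, adjusted p = 0.0563).

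**Figure D2:**
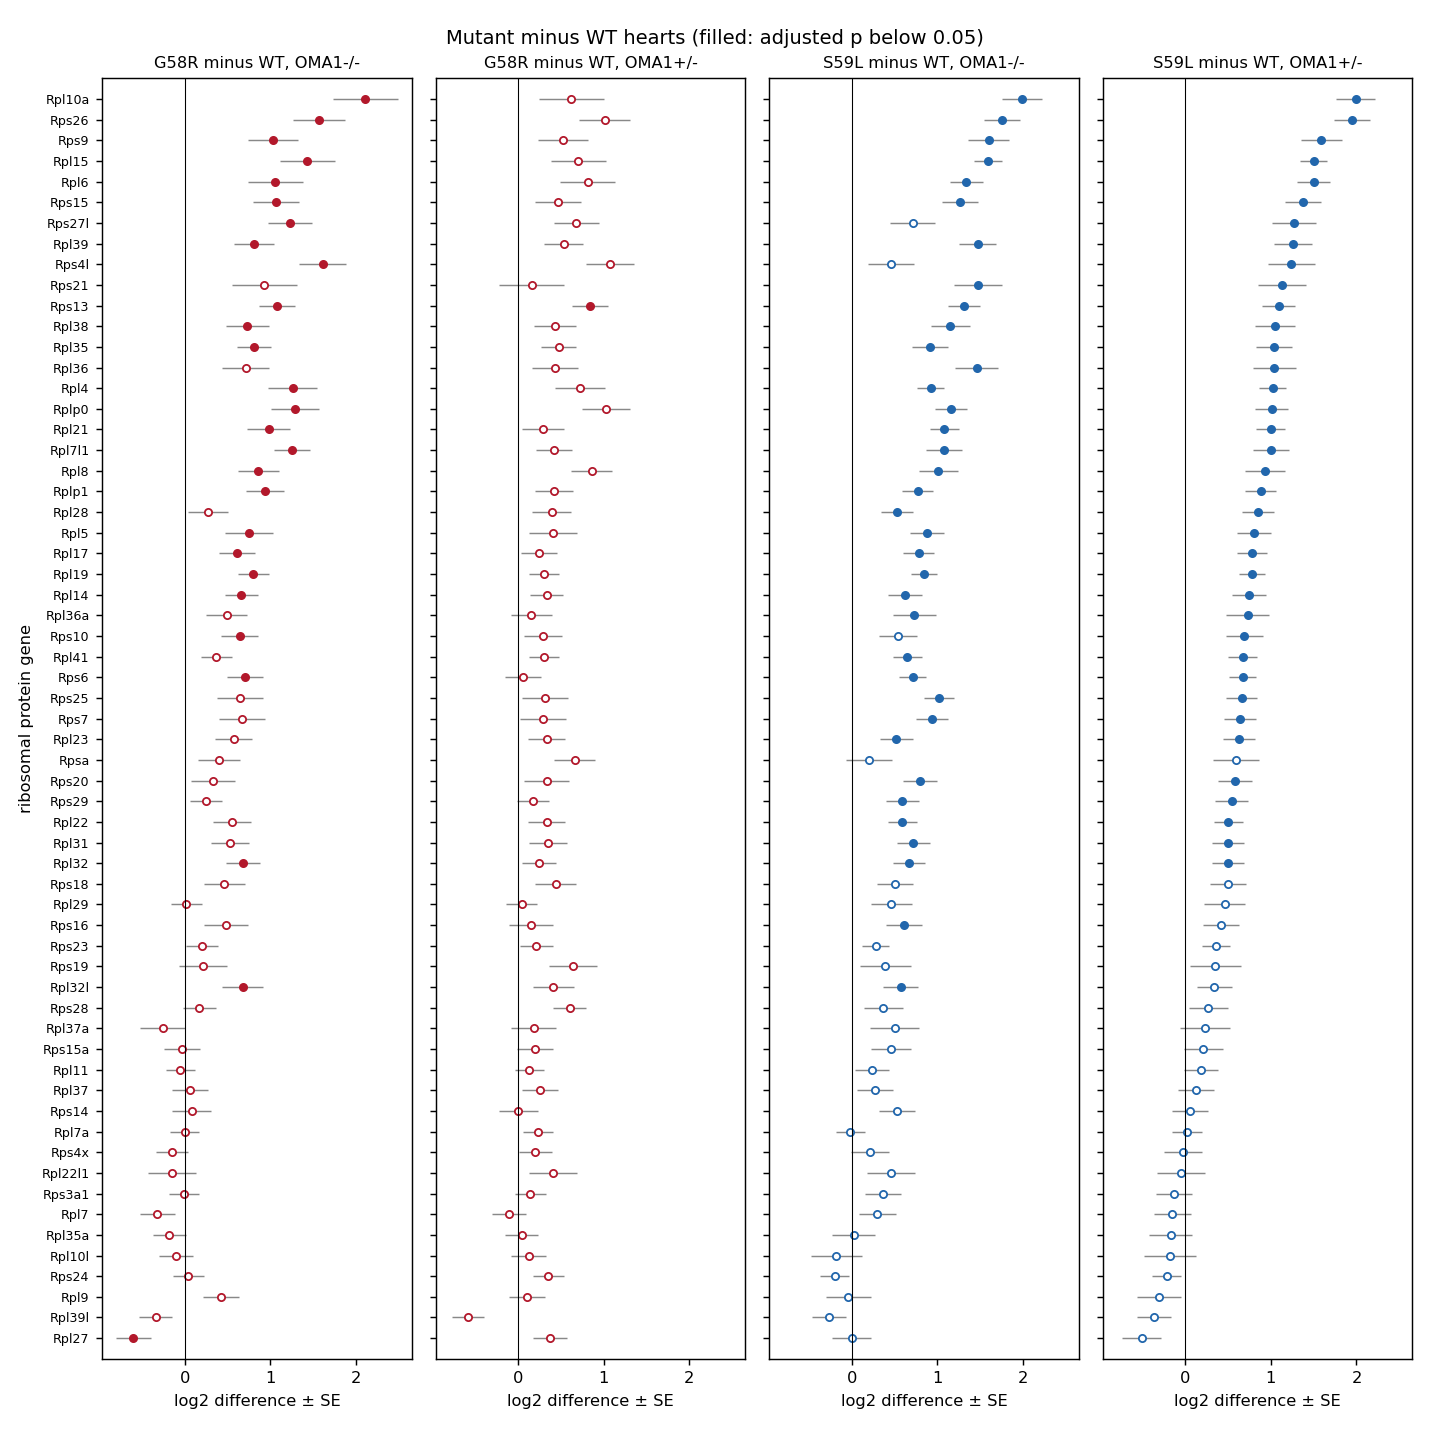
Log2 difference ± SE (horizontal axes) of each of the 61 ribosomal protein genes (vertical axis, ordered by the last panel) between mutant and WT hearts in 4 comparisons, filled where the adjusted p was below 0.05. The counts of filled points to the right of 0 are 26 (G58R, OMA1-/-), 1 (G58R, OMA1+/-), 36 (S59L, OMA1-/-) and 37 (S59L, OMA1+/-).

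Other genes did not pass the test in S59L hearts. Rps4x, the X-linked copy of the 40S protein eS4, had log2 levels of 13.88, 14.0, 13.4 and 12.98 in C10 S59L OMA1-/- hearts and 13.26, 13.39, 13.4 and 13.38 in C10 WT OMA1-/- hearts. It had 14.01, 13.45, 13.26 and 13.18 in C10 S59L OMA1+/- hearts and 13.58, 13.4, 13.42 and 13.6 in C10 WT OMA1+/- hearts. In both pairs the mutant hearts spanned the WT range, with differences of 0.21 ± 0.22 and -0.03 ± 0.22 (adjusted p = 0.508 and 0.934). Rpl11 (0.24 ± 0.20 and 0.18 ± 0.20) and Rpl7 (0.30 ± 0.22 and -0.15 ± 0.22) did not pass the test either, whereas Rpl5 rose by 0.88 ± 0.20 and 0.80 ± 0.20 (adjusted p = 0.00392 and 0.00572), calls lost after quantile normalization (0.43 and 0.33, adjusted p = 0.167 and 0.297). Rpsa, the 40S protein also known as the laminin receptor, differed by 0.20 ± 0.27 and 0.59 ± 0.27 (adjusted p = 0.596 and 0.0969). Of the 61 genes, 22 rose in C10 G58R OMA1-/-, C10 S59L OMA1-/- and C10 S59L OMA1+/- hearts alike (36.1%, against 9.8% of all genes and 24.6% of the brightest 10%), 22 rose in none of these 3, and 17 rose in 1 or 2 of them.

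G58R hearts with 1 copy of Oma1 gave few calls. In C10 G58R OMA1+/- hearts 1 of the 61 genes rose and 0 fell, against 1.51% and 0.472% of all genes and 2.61% of the brightest 10% higher, although 59 of the 61 differences were positive and the median was 0.33 (-0.03 over all genes and 0.20 over the brightest 10%). The gene was Rps13, at 13.13, 12.96, 12.88 and 12.82 in C10 G58R OMA1+/- hearts and 11.93, 12.04, 12.53 and 11.92 in C10 WT OMA1+/- hearts (0.84 ± 0.21, adjusted p = 0.0456). The groups did not overlap, and the call was lost in 13 of the 16 fits that left out 1 array each and after quantile normalization (0.64, adjusted p = 0.124). All 4 mutant arrays lay above all 4 WT arrays for 6 of the 61 genes (Rpl8, Rplp0, Rps4l, Rps13, Rps28 and Rpsa), against 4.56% of all genes, and below them for 0, against 3.31%.

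The WT side of that comparison was uneven. The mean log2 level of the 61 genes was 14.34, 14.55, 14.13 and 14.17 in C10 G58R OMA1+/- hearts, against 14.19, 13.81, 14.24 and 13.47 in C10 WT OMA1+/- hearts. The WT heart at 13.47, replicate 4, had adipocyte and atrial marker means of 8.29 and 11.03, and the other 3 WT hearts had 11.5 to 12.06 and 16.69 to 18.63. Rpl10a followed the same split, at 14.74, 15.08, 14.21 and 14.21 in C10 G58R OMA1+/- hearts and 14.82, 14.2, 14.28 and 12.47 in C10 WT OMA1+/- hearts. The last WT heart lay far below the mutant range while the other 3 lay within it or at its lower edge, and the difference of 0.62 ± 0.38 did not pass the test (adjusted p = 0.405). With the adipocyte marker mean as a covariate, 26 of the 61 genes rose and 1 fell in C10 G58R OMA1+/- hearts (median 0.84). The covariate itself differed between the groups, at 10.92 ± 1.77 in C10 WT OMA1+/- and 8.1 ± 0.65 in C10 G58R OMA1+/- hearts (SD). The WT spread lay mostly in replicate 4, so genotype, adipocyte tissue and this heart cannot be told apart in that fit. Without the 7 arrays of high adipocyte markers the C10 WT OMA1+/- group kept 1 heart, replicate 4. That heart had the lowest mean of the 61 genes in its group. The median difference from it was 0.78, and a positive median followed from which heart was left, so it gives no separate support. With the atrial marker mean as a covariate 5 passed. These 3 fits were chosen after the data were seen, and no share of all genes is given beside their counts.

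**Figure D3:**
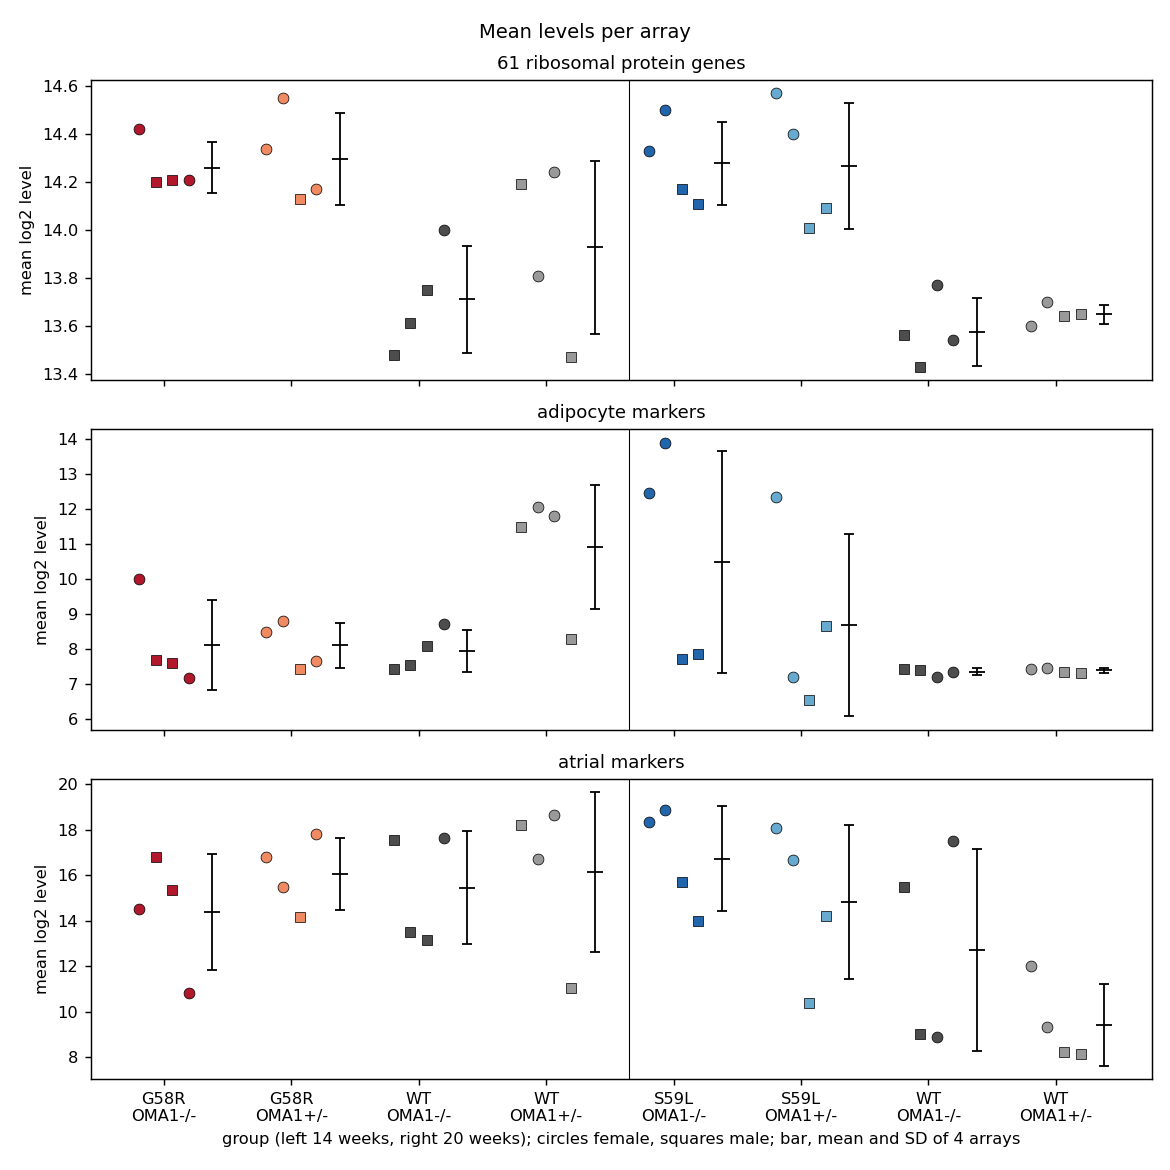
Mean log2 level (vertical axes) of the 61 ribosomal protein genes, 6 adipocyte markers and 4 atrial markers on each array, by group (horizontal axis), circles for females and squares for males, with the mean and SD of 4 arrays beside them. The ribosomal protein mean of C10 WT OMA1+/- hearts at 14 weeks spanned 13.47 to 14.24, and that of C10 WT OMA1+/- hearts at 20 weeks 13.6 to 13.7.

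The mean level of the 61 genes separated the other mutant groups from their WT hearts. It was 14.42, 14.2, 14.21 and 14.21 in C10 G58R OMA1-/- hearts and 13.48, 13.61, 13.75 and 14.0 in C10 WT OMA1-/- hearts. At 20 weeks it was 14.33, 14.5, 14.17 and 14.11 in C10 S59L OMA1-/- hearts, against 13.56, 13.43, 13.77 and 13.54 in C10 WT OMA1-/- hearts. Its values were 14.57, 14.4, 14.01 and 14.09 in C10 S59L OMA1+/- hearts, against 13.6, 13.7, 13.64 and 13.65 in C10 WT OMA1+/- hearts. The lowest mutant heart lay above the highest WT heart in each of these 3 pairs. The level below which 95% of all genes lay also separated them, so the separation is not particular to the 61 genes. Its lowest mutant and highest WT values were 13.37 and 13.03 (G58R OMA1-/-), 13.11 and 12.95 (S59L OMA1-/-), and 13.15 and 12.92 (S59L OMA1+/-). In the heat map of all 61 genes the same hearts stood out gene by gene, with C10 WT OMA1+/- replicate 4 at 14 weeks below the other 3 WT hearts of its group across much of the upper rows.

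**Figure D4:**
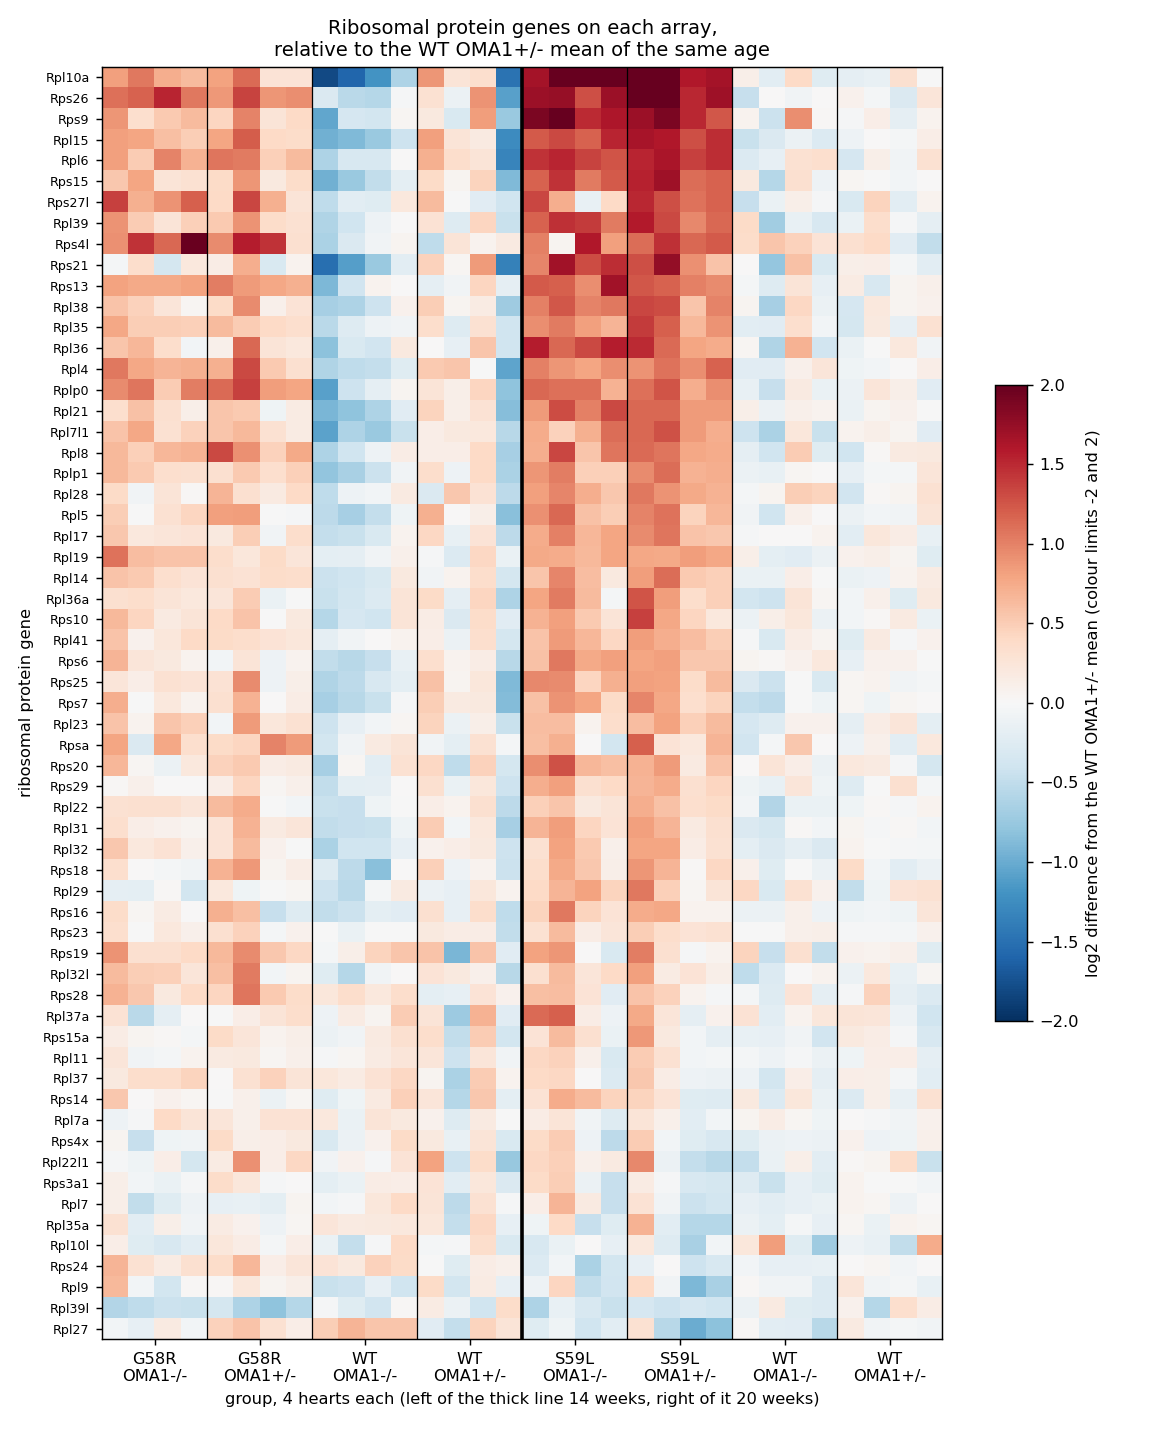
Log2 difference of each of the 61 ribosomal protein genes (rows) on each of 32 arrays (columns, grouped, 14 weeks left and 20 weeks right of the thick line) from the mean of C10 WT OMA1+/- hearts of the same age, with colours limited at -2 and 2. The upper rows (Rpl10a, Rps26, Rps9, Rpl15, Rpl6) were higher in S59L hearts on both OMA1 backgrounds, and the lower rows (Rpl7, Rps4x, Rpl27) were not.

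Loss of the remaining Oma1 copy was compared within each C10 genotype. In C10 G58R hearts 0 of the 61 genes passed the test by limma, against 3.25% of all genes higher and 1.24% lower in C10 G58R OMA1-/- hearts, with 1 of the 61 at an unadjusted p below 0.05 and a median of -0.04. In C10 S59L hearts 0 of the 61 passed, against 0.22% higher and 0.625% lower over all genes, with 2 at an unadjusted p below 0.05 and a median of 0.01. In C10 WT hearts 0 passed at either age, with 8 (14 weeks) and 0 (20 weeks) at an unadjusted p below 0.05 and medians of -0.24 and -0.07. Over all genes 0 and 0.00513% then passed. At 14 weeks the WT median turned to 0.31 with the adipocyte covariate. The covariate itself differed between these WT groups, at 10.92 ± 1.77 in OMA1+/- and 7.94 ± 0.59 in OMA1-/- hearts (SD). Without C10 WT OMA1+/- replicate 4, the heart with the lowest ribosomal protein mean, 9 of the 61 genes were lower in C10 WT OMA1-/- hearts. No share of all genes is given for that fit, so the count shows only how far the result rests on that heart.

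Single genes were apart in these pairs without passing the test. All 4 C10 G58R OMA1-/- hearts lay above all 4 C10 G58R OMA1+/- hearts for Rpl19 (16.48, 16, 15.95 and 15.96, against 15.74, 15.62, 15.77 and 15.63), and below them for Rps4x (13.57, 13.05, 13.42 and 13.44, against 13.89, 13.62, 13.65 and 13.7). Over all genes 6.5% lay above and 4.47% below. All 4 C10 WT OMA1-/- hearts lay below all 4 C10 WT OMA1+/- hearts at 20 weeks for 4 of the 61 genes (Rpl7, Rpl15, Rpl32 and Rps3a1), against 1.74% of all genes (1.77% above, 0 of the 61), and above them at 14 weeks for Rpl27 and Rps24, against 2.04% of all genes (1.39% below, 0 of the 61). Between C10 S59L OMA1-/- and C10 S59L OMA1+/- hearts 0 of the 61 were apart, against 2.06% of all genes above and 3.2% below. The tests of whether OMA1 loss changed the mutation's effect called 0 of the 61 genes for G58R (2.24% of all genes higher and 0.887% lower, 4 of the 61 at an unadjusted p below 0.05) and 0 for S59L (0.0205% and 0.0513%, with 0 at an unadjusted p below 0.05). For G58R, 1 array decided part of this count, since without C10 WT OMA1+/- replicate 4 at 14 weeks 6 of the 61 passed. No share of all genes is given beside these 6, which are not read as a result about the 61 genes.

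The 2 mutations were set side by side in a fit of all 32 arrays, added after the data were seen, in which age and mutation cannot be told apart. With OMA1 absent, 0 of the 61 genes differed between the G58R effect and the S59L effect (0.728% of all genes higher and 0.205% lower, 3 of the 61 at an unadjusted p below 0.05), with a median difference of -0.18. With 1 copy of Oma1, 0 of the 61 differed (3.03% and 5.3% of all genes, 12 of the 61 at an unadjusted p below 0.05) and the median was -0.26. Without C10 WT OMA1+/- replicate 4 at 14 weeks 10 of the 61 passed, 9 of them with the smaller effect in G58R. The share of all genes in that fit is not given, so this count shows only how far the result rests on that heart. C10 G58R OMA1-/- and C10 S59L OMA1+/- hearts were compared with different WT hearts, and across the 61 genes their log2 differences had a correlation of 0.91 (0.81 across all 19505 genes). On matched OMA1 backgrounds, again with no shared arrays, it was 0.81 (0.76 across all genes) between the G58R and S59L effects with OMA1 absent and 0.66 (0.5 across all genes) with 1 copy of Oma1. Genes of 1 array share normalization and tissue and are not independent replicates. Of the 26 genes that rose in C10 G58R OMA1-/- hearts 25 also rose in C10 S59L OMA1+/- hearts (96.2% of the 26 and 67.6% of the 37).

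**Figure D5:**
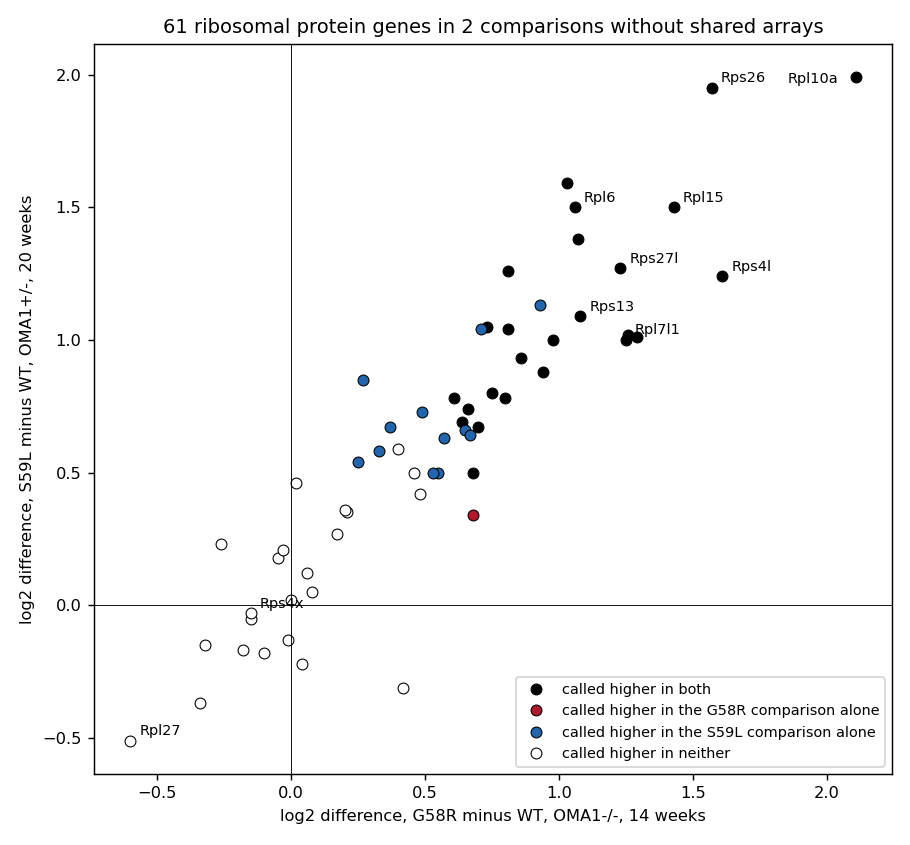
Log2 difference of each of the 61 ribosomal protein genes between C10 G58R and C10 WT hearts lacking OMA1 at 14 weeks (horizontal axis) and between C10 S59L and C10 WT hearts with 1 copy of Oma1 at 20 weeks (vertical axis), 2 comparisons that share no array. Of the 61 genes 25 were called higher in both, and Rpl10a was farthest from 0 in both (2.11 and 1.99).

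Genes of both subunits were among those that rose. Of the 32 standard 60S genes 16 rose in C10 G58R OMA1-/- hearts, 23 in C10 S59L OMA1-/- and 23 in C10 S59L OMA1+/- hearts, with medians of 0.64, 0.72 and 0.76. Of the 22 standard 40S genes 6, 11 and 11 rose, with medians of 0.43, 0.56 and 0.56. The 40S shares were 27.3%, 50% and 50% and the 60S shares 50%, 71.9% and 71.9%, against 36%, 34.8% and 39.3% of the brightest 10% of genes, so that in C10 G58R OMA1-/- hearts the 40S share was below that of the bright genes. The difference between the subunits was not tested. Rpl19, which bridges the subunits, rose by 0.80 ± 0.18, 0.84 ± 0.15 and 0.78 ± 0.15 in the same 3 comparisons, but after quantile normalization it lost the call in each (0.40, 0.39 and 0.34, adjusted p = 0.124, 0.125 and 0.181).

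The paralogs differed in their calls. Rpl7l1, a nucleolar relative of Rpl7 that takes part in assembly of the large subunit, was at 12.19, 12.39, 11.92 and 12.07 in C10 G58R OMA1-/- hearts and 10.54, 11, 10.87 and 11.16 in C10 WT OMA1-/- hearts. The groups were apart by 1.25 ± 0.21 (adjusted p = 0.000208), and Rpl7l1 also rose in C10 S59L OMA1-/- (1.08 ± 0.21) and C10 S59L OMA1+/- hearts (1.0 ± 0.21), while Rpl7 passed in none of these on the deposited values. Rps27l, a p53-responsive relative of Rps27, was at 12.74, 12.09, 12.28 and 12.57 in C10 G58R OMA1-/- hearts, against 10.87, 11.17, 11.14 and 11.59 in C10 WT OMA1-/- hearts (1.23 ± 0.26, adjusted p = 0.00158). It was at 12.65, 12.43, 12.23 and 12.32 in C10 S59L OMA1+/- hearts, against 10.84, 11.58, 10.93 and 11.21 in C10 WT OMA1+/- hearts (1.27 ± 0.26, adjusted p = 0.00134). In C10 S59L OMA1-/- hearts the 4 values spread between 10.99 and 12.47, overlapped the WT hearts at 10.68 to 11.26, and gave 0.71 ± 0.26 (adjusted p = 0.0505), which passed the threshold when any of 3 of the 16 arrays was left out.

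Rps4l, a mouse relative of Rps4x, had values of 9.05, 9.58, 9.28 and 10.11 in C10 G58R OMA1-/- hearts and 7.5, 7.85, 8.06 and 8.18 in C10 WT OMA1-/- hearts (1.61 ± 0.28, adjusted p = 0.000323). All mutant hearts were above all WT hearts, while Rps4x overlapped in the same arrays. Rps4l also rose in C10 S59L OMA1+/- hearts (1.24 ± 0.27, adjusted p = 0.00191), and differed by 0.46 ± 0.27 in C10 S59L OMA1-/- hearts (adjusted p = 0.211), where it passed without C10 S59L OMA1-/- replicate 2. Rpl22 differed by 0.55 ± 0.22, 0.59 ± 0.17 and 0.50 ± 0.17 in C10 G58R OMA1-/-, C10 S59L OMA1-/- and C10 S59L OMA1+/- hearts (adjusted p = 0.0655, 0.0163 and 0.0295). The C10 S59L OMA1-/- call was lost without C10 WT OMA1-/- replicate 2, the C10 S59L OMA1+/- call in 4 of the 16 fits that left out 1 array each, and both after quantile normalization (0.15 and 0.01). Its paralog Rpl22l1, whose level Rpl22 is known to repress, differed by -0.15 ± 0.28, 0.46 ± 0.28 and -0.05 ± 0.28 and passed in none. Rpl36a rose in both S59L comparisons (0.73 ± 0.25 in each, adjusted p = 0.0376 and 0.0305) and differed by 0.49 ± 0.24 in C10 G58R OMA1-/- hearts (adjusted p = 0.112), with both S59L calls lost after quantile normalization and in 5 and 4 of the 16 fits without 1 array.

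Genes around the ribosomal proteins were read from short lists. Their counts stand against 18.3%, 15.8% and 18.6% of all genes that rose in C10 G58R OMA1-/-, C10 S59L OMA1-/- and C10 S59L OMA1+/- hearts, 15.3%, 14% and 17.9% that fell, and 36%, 34.8% and 39.3% of the brightest 10% that rose. Fau, which encodes the 40S protein eS30 as a fusion with a ubiquitin-like protein, rose by 0.93 ± 0.25 in C10 G58R OMA1-/-, 1.49 ± 0.21 in C10 S59L OMA1-/- and 1.66 ± 0.21 in C10 S59L OMA1+/- hearts. Rpl36al, a near copy of Rpl36a, rose in C10 S59L OMA1+/- hearts (0.71 ± 0.26, adjusted p = 0.0427). The elongation list held 7 genes, the elongation factors and Eef2k, which encodes the kinase of Eef2. Of these, 3 rose and 2 fell (Eef1a2 and Eef2k) in C10 G58R OMA1-/- hearts. In C10 S59L OMA1-/- hearts 2 rose and 1 fell, and in C10 S59L OMA1+/- hearts 4 rose and 1 fell. The shares higher were 42.9%, 28.6% and 57.1% in this order. Eef1a1, the general elongation factor, rose in each (0.58 ± 0.20, 0.74 ± 0.17 and 0.72 ± 0.17), and Eef1a2, the form that adult heart and skeletal muscle use, fell in each (-1.56 ± 0.30, -2.22 ± 0.31 and -1.17 ± 0.31). For Eef1a2 the G58R effect was more negative with OMA1 absent (-1.69 ± 0.42, adjusted p = 0.0344). Part of this lay between the WT groups at 14 weeks, at 15.18 ± 0.85 in the uneven C10 WT OMA1+/- hearts and 16.06 ± 0.09 in C10 WT OMA1-/- hearts (SD). The means in G58R hearts were 15.31 ± 0.35 (OMA1+/-) and 14.5 ± 0.09 (OMA1-/-). Whether the Eef1a2 call depends on single arrays was not tested.

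Of 10 other genes whose messenger RNAs carry a TOP tract, 5 rose and 3 fell in C10 G58R OMA1-/- hearts, 6 rose and 1 fell in C10 S59L OMA1-/- hearts, and 5 rose and 2 fell in C10 S59L OMA1+/- hearts (50%, 60% and 50% higher). Btf3, a subunit of the nascent-chain complex, rose by 1.89 ± 0.28, 1.70 ± 0.22 and 2.13 ± 0.22, and Eif3h by 1.08 ± 0.20, 1.22 ± 0.21 and 1.0 ± 0.21, while Tpt1 fell by 0.56, 0.53 and 0.68. Of 13 genes of mTORC1 and of TOP regulation, 5 rose and 0 fell in C10 G58R OMA1-/- hearts, 5 rose and 1 fell in C10 S59L OMA1-/- hearts, and 7 rose and 1 fell in C10 S59L OMA1+/- hearts (38.5%, 38.5% and 53.8% higher). Sesn2, which lay below background on all 32 arrays, is 1 of the 5 in C10 G58R OMA1-/- and 1 of the 7 in C10 S59L OMA1+/- hearts, and no change is read for it. Eif4ebp1, a translational repressor inhibited by mTORC1, rose by 2.78 ± 0.32, 3.25 ± 0.30 and 3.53 ± 0.30, and was 1.35 ± 0.32 higher in C10 G58R OMA1-/- than in C10 G58R OMA1+/- hearts (adjusted p = 0.0211). Deptor, an inhibitor of mTOR, rose by 2.42 ± 0.33, 1.95 ± 0.28 and 1.28 ± 0.28, so that members that rose include inhibitors of the pathway. Rheb, an activator of mTORC1, also had higher means in mutant than in WT hearts. They were 14.06 against 13.06 (G58R OMA1-/-), 13.83 against 12.93 (S59L OMA1-/-) and 14.01 against 12.94 (S59L OMA1+/-). Rps6kb2, an S6 kinase gene, had lower means in S59L hearts, at 8.93 against 9.57 (OMA1-/-) and 8.87 against 9.65 (OMA1+/-). Mtor itself rose in C10 S59L OMA1-/- (1.41 ± 0.25) and C10 S59L OMA1+/- hearts (1.29 ± 0.25). Of 5 dedicated chaperones of ribosomal proteins only Grwd1 passed, in C10 G58R OMA1-/- and C10 S59L OMA1+/- hearts (1 of 5, 20%, in each), and 0 passed in C10 S59L OMA1-/- hearts. Grwd1 lay below background on every array of all 4 WT groups and of C10 S59L OMA1-/-, so its differences are bounds, with those arrays set at the background level. It was at least 1.99-fold higher in C10 G58R OMA1-/- than in C10 WT OMA1-/- hearts (adjusted p = 0.000211), and at least 1.91-fold higher in C10 S59L OMA1+/- than in C10 WT OMA1+/- hearts (adjusted p = 0.00143). In C10 S59L OMA1-/- hearts it was at least 1.91-fold lower than in C10 S59L OMA1+/- hearts (adjusted p = 0.0202). In C10 G58R OMA1+/- hearts 0 genes of these lists passed.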

How the data were processed

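Total RNA of whole hearts was hybridised to 1-colour Clariom S Mouse arrays, 1 heart per array. The authors summarised probes per gene by SST-RMA in Transcriptome Analysis Console and deposited log2 values. The sources used here do not say if all 32 arrays were normalized together. Probe sets with 1 gene symbol were kept, and for a gene with several the probe set with the highest mean. Group means were fitted per cohort of 16 arrays by lmFit, contrasts.fit and eBayes of limma 3.58.1 (R 4.3.3), two-sided, with Benjamini-Hochberg adjustment over 19505 genes and calls at an adjusted p below 0.05. Background is the 95th percentile of the means of 1410 receptor genes. The genes, lists and naming rule (per comparison the 10 called genes of smallest p in each direction, plus a fixed set) were chosen with earlier results of these data known. Genes shown only because their arrays did not overlap were chosen after their values were seen. Alternatives were other sets of arrays, sex, quantile normalization, a background filter, limma's options, array weights, a replicate block, scaling by array mean, single arrays left out and, added later, marker covariates. The code was tested on simulated data. The number of arrays limits the precision.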

Additional observations from a re-analysis of the deposited data

Results flagged for a closer look

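Of 232 sets of 4 arrays examined (28 named genes and the mean of all 61, in 8 groups), 12 held 1 array set apart from the other 3 by a gap test. The test takes the gap as a share of the range of the 4 values, so a small gap can meet it. Chance alone meets it in about 1 of 20 sets, a rate near that found here. In C10 G58R OMA1-/- hearts the mean of the 61 genes was 14.42 in replicate 1, against 14.21 in the next heart. Rpl19 was 16.48 in the same heart, against 16 in the next, and Rpl22 was 15.43 in replicate 4, against 15.5 in the next. In C10 G58R OMA1+/- hearts Rps26 was 14.86 in replicate 2 (next 14.43) and Rpl7 was 15.78 in replicate 4 (next 15.57). In C10 S59L OMA1-/- hearts Rplp0 was 13.38 in replicate 4 (next 13.79) and Rps26 was 14.0 in replicate 3 (next 14.43). In C10 WT OMA1-/- hearts at 20 weeks Rpl22 was 14.52 in replicate 2 (next 14.97) and Rps4x was 13.26 in replicate 1 (next 13.38). In C10 WT OMA1+/- hearts Rpl7l1 was 11.06 in replicate 4 at 14 weeks (next 11.75), and at 20 weeks Rpl19 was 15.02 in replicate 4 (next 15.31) and Rpl27 was 11.02 in replicate 1 (next 10.8).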

How the results depend on the processing

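Counts of called genes among the 61 were 27 (G58R minus WT, OMA1-/-), 1 (G58R minus WT, OMA1+/-), 36 (S59L minus WT, OMA1-/-), 37 (S59L minus WT, OMA1+/-) and 0 elsewhere. Quantile normalization gave 17, 0, 16 and 16, and 1 for the interaction of G58R with OMA1 loss and for the difference between the mutations with 1 copy of Oma1. For G58R minus WT with 1 copy of Oma1, the count was 0 with sex as a covariate and when the fit held only these 2 groups. It was also 0 with limma's trend and robust options and with array weights. It was 4 with all 32 arrays in 1 fit and with genes above background only. In fits added after the data were seen it was 27 (adipocyte covariate) and 5 (atrial covariate). The adipocyte marker mean differed between these 2 groups, and the count of 27 cannot be told apart from that difference. Without the 7 arrays of high adipocyte markers S59L minus WT with OMA1 absent gave 23. No count from that fit is given for comparisons with C10 WT OMA1+/- hearts at 14 weeks, since 1 heart was left in the group. Array weights gave 2 for OMA1 loss in WT hearts at 14 weeks, 3 for the G58R interaction and 9 for the difference between the mutations with 1 copy of Oma1. That difference, itself added after the data were seen, gave 3 with sex, 2 with genes above background only and 2 with the adipocyte covariate. The G58R interaction gave 1 with genes above background only and 1 with the atrial covariate. No named gene that was called changed sign under any setting, and the other settings kept each count within 1.5 times. The causes were not tested.

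Leaving out 1 array at a time gave 20 to 34 (G58R, OMA1-/-), 0 to 4 (G58R, OMA1+/-), 28 to 37 (S59L, OMA1-/-), 30 to 38 (S59L, OMA1+/-), 0 to 9 (OMA1 loss in WT hearts at 14 weeks), 0 to 6 (G58R interaction) and 0 to 10 (difference between the mutations with 1 copy of Oma1), and 0 elsewhere. The upper counts of the last 3 came without C10 WT OMA1+/- replicate 4 at 14 weeks. They have no share of all genes beside them and show only how far the counts rest on that heart.

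Replicate numbers showed no clear pairing of the hearts. Same-numbered arrays of different groups deviated with correlations of -0.38 to 0.33 at 14 weeks and -0.20 to 0.26 at 20 weeks. Their means were 0.04 and 0.05, against -0.01 and -0.02 for other numbers. Of 24 pairs per age, 6 (14 weeks) and 11 (20 weeks) exceeded 0.1. Shared litters or batches were not tested. With the replicate block the counts were 27, 1, 32 and 35 in the order above and 0 elsewhere, but the 1 gene in C10 G58R OMA1+/- hearts was then Rps4l (1.07, adjusted p = 0.0471) and not Rps13 (0.84, adjusted p = 0.0529). The interactions have no fit with only the groups compared, since they use all 4 groups. Precision is limited by 4 arrays per group, and no change is read for Rpl10l and Rpl39l, at or below background on most or all arrays.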

Other observations

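Within S59L hearts the 2 females of each OMA1 background had a higher mean of the 61 genes than the 2 males. The means were 14.33 and 14.5 in females and 14.17 and 14.11 in males of C10 S59L OMA1-/-, and 14.57 and 14.4 in females and 14.01 and 14.09 in males of C10 S59L OMA1+/-. Atrial marker means were also higher in these females (18.35 and 18.88 against 15.68 and 13.99, and 18.09 and 16.66 against 10.37 and 14.21). Mesothelial marker means followed the same split (7.69 and 9.38 against 6.33 and 6.12 in C10 S59L OMA1-/-, 8.31 and 7.45 against 5.15 and 6.1 in C10 S59L OMA1+/-), as did adipocyte marker means in C10 S59L OMA1-/- (12.47 and 13.9 against 7.71 and 7.85). In C10 WT hearts at 20 weeks the sexes overlapped at 13.54 to 13.77 in females and 13.43 to 13.56 in males of OMA1-/-, and at 13.6 to 13.7 in females and 13.64 to 13.65 in males of OMA1+/-. At 14 weeks females were higher in C10 G58R OMA1+/- (14.17 to 14.55 against 14.13 in the male) and C10 WT OMA1-/- hearts (14.0 against 13.48 to 13.75). The sexes overlapped in C10 WT OMA1+/- hearts (females 13.81 and 14.24, males 14.19 and 13.47). They lay close in C10 G58R OMA1-/- hearts (females 14.42 and 14.21, males 14.2 and 14.21). With 1 to 3 animals per sex and group this was not tested, and sex and the amount of these tissues cannot be told apart here.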
